A study of Mus musculus with 7 samples.

Results

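MHC class I molecules, their peptide-loading partners and the inducible proteasome subunits were examined in muscle stem cells (MuSCs) of WT and homozygous *Jag2sm* mice. The 10 genes, of 56748 listed, were the heavy chains *H2-K1* and *H2-D1*, the light chain *B2m*, the peptide transporter chains *Tap1* and *Tap2*, the loading factor *Tapbp*, the immunoproteasome subunits *Psmb8*, *Psmb9* and *Psmb10*, and the transactivator *Nlrc5*. They were chosen by name with results of the same genotype comparison known, so their genotype differences are given as a description without a test. MuSCs came from hind limb muscles of adult animals and were selected on magnetic columns as CD31-, CD45-, Sca1- and Integrin α7+ cells. The study's general methods keep MuSCs in culture on collagen in a growth medium with serum and bFGF. Its RNA-seq section names isolated MuSCs without stating a culture step. There were 3 WT libraries and 4 homozygous *Jag2sm* libraries. *Jag2sm* is a hypomorphic allele of the NOTCH ligand gene *Jag2*, although the genotype label reads Jag2-/-. The study obtained the *Jag2sm* line from The Jackson Laboratory as STOCK Jag2sm/J, and it examined male and female animals. The sources used here do not give the sex or the number of animals behind each library. Nor do they state the strain background or MHC haplotype of the sampled WT and *Jag2sm* animals.

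MHC class I molecules show peptides from a cell's own proteins to CD8 T cells. The peptides are cut in the cytosol by the proteasome, pumped into the endoplasmic reticulum by the TAP transporter, and fitted with the help of tapasin into a heavy chain paired with β2-microglobulin. Interferons raise most of these genes, and in the proteasome they exchange the 3 constitutive catalytic subunits for immunoproteasome subunits. Resting skeletal muscle is known for a low level of class I on the cell surface.

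Reads of native-barcoded direct cDNA were counted on genes, with 187834 to 1937581 reads per library. WT replicate 1 was the shallowest library, and 3 reads in it make 17.3 CPM (the normalized count, in which TMM puts all libraries on one scale), against 1.48 to 4.24 CPM elsewhere. Between 2.44% and 3.24% of all reads did not align in the WT libraries and 3.07% in *Jag2sm* replicate 3, against 50.8%, 46.7% and 46.0% in *Jag2sm* replicates 1, 2 and 4. *Jag2* itself stood at 80.7, 114 and 116 CPM in WT replicates 1 to 3 and at 42.4, 78.8, 71.9 and 77.4 CPM in *Jag2sm* replicates 1 to 4. Every *Jag2sm* library lay below every WT library, as for 12.2% of all tested genes. The difference was not called (log2 fold change -0.64, adjusted p = 0.166 by edgeR's quasi-likelihood test), and a hypomorphic allele need not change its transcript level. Nothing in the labels says which libraries come from separate animals, so the p-values measure the spread between these libraries, which may be technical.

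The MuSC identity of the libraries was checked on marker lists. Of 7 muscle stem cell markers, *Msc* was at 0 in every library, and the summed level of the list was 3024 to 5603 CPM in WT and 1813 to 2229 CPM in *Jag2sm* libraries (two-sided exact permutation test, p = 0.0571, 0.171 after adjustment over 6 lists, where 3 against 4 libraries cannot go below 0.0286). *Pax7*, which marks satellite cells, and *Myod1*, the myogenic activator, had log2 fold changes of 0.80 (adjusted p = 0.174) and -0.19 (adjusted p = 0.696 by edgeR). The muscle intermediate filament gene *Des*, which carries most of the summed level in WT libraries, was lower in *Jag2sm* libraries (log2 fold change -1.63, adjusted p = 0.0244 by edgeR).

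The promoters of both heavy chain genes and of *B2m* are shown because these genes carry the largest counts among the members in *Jag2sm* libraries, and because their upstream boxes are laid out alike. RefSeq windows of 250 bases upstream of a start site (made on GRCm38.p6 and matched exactly once to GRCm39) were found for 8 of the 10 members. A TGACG box, the core of the X2 element, and an inverted CCAAT box, the Y element, are textbook features of class I promoters to which the NLRC5-containing complex binds. In all 3 promoters TGACG and ATTGG lay on the gene's strand with 20 bases between them. The pairs are shown with both boxes in capitals, at chr17:34219333-34219362 (minus strand) for *H2-K1*, chr17:35481969-35481998 (plus) for *H2-D1* and chr2:121978090-121978119 (plus) for *B2m*. In the GENCODE annotation the *H2-D1* and *B2m* stretches fall inside the first exon, ahead of the coding sequence, since those gene models begin upstream of the RefSeq start.
H2-K1: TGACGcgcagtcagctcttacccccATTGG
H2-D1: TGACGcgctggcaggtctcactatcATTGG
B2m: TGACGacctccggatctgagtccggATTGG
Between *H2-K1* and *H2-D1* 23 of 30 bases were identical, and between *B2m* and the heavy chains 13 (*H2-K1*) and 12 (*H2-D1*). This spacing, searched on both strands, was held by 30 of 32851 RefSeq windows (0.0913%), those of the 3 genes included, where *H2-K1* has 2 windows. The spacing was taken from these 3 promoters, so nothing is read from how rare it is.

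Upstream of that pair each of the 3 promoters held a match to the NF-kB consensus, which 3.90% of all windows hold. In the heavy chain genes it is the same palindrome, read at 2 adjacent positions. In *B2m* it lies 3 bases behind the only ISRE match among the 8 members with a window. The ISRE, the interferon-stimulated response element, was searched as GAAA, any 2 bases and GAAA, which 2.98% of all windows hold. Looser forms of the element were not searched, so a window without a match, as in the heavy chain genes, can still hold one. The stretches lie at chr17:34219412-34219441 (minus strand), chr17:35481890-35481919 (plus) and chr2:121978026-121978055 (plus), with the NF-kB match and the ISRE in capitals.
H2-K1: cccagggctGGGGATTCCCCatctccacag
H2-D1: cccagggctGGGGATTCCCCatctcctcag
B2m: catGAAACTGAAAatgGGAAAGTCCCtttg
For context, the whole *H2-K1* window (chr17:34219322-34219571, minus strand, GRCm39) follows, with these boxes in capitals. It ends at the base before the annotated gene start. Exons of the gene *Gm53999* on the opposite strand overlap those of *H2-K1* itself.
H2-K1 promoter: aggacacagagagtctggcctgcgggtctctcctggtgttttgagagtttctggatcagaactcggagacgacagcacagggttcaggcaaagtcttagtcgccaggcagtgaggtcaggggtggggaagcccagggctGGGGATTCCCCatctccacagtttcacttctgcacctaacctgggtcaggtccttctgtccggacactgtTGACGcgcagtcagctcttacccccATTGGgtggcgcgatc
Over the 8 members with a window, TGACG occurred in 5 (17.8% of all windows), CCAAT in 6 (33.8%) and the gamma-activated sequence TTCNNNGAA in 1, *Psmb8* (7.02%), all searched on both strands. *Tap1* and *Psmb9* are transcribed in opposite directions from a shared promoter, and their windows had 225 bases in common (chr17:34406305-34406529). A match is a description of the letters in the window and not a bound site.

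Both class I heavy chain genes had higher levels in every *Jag2sm* library than in any WT library. *H2-K1* (chr17:34214987-34219321, minus strand), which encodes the classical K heavy chain, stood at 17.3, 12.3 and 10.4 CPM in WT replicates 1 to 3 and at 74.9, 181, 25.1 and 105 CPM in *Jag2sm* replicates 1 to 4. The WT libraries were close together, though on only 3, 19 and 11 reads, while the *Jag2sm* libraries spread 7.20-fold from replicate 3 to replicate 2. The fitted fold was 7.95 (log2 fold change 2.99, SE 0.658). *H2-D1* (chr17:35481691-35486475, plus strand), the classical D heavy chain, stood at 5.76, 9.05 and 11.4 CPM in WT and at 105, 299.9, 35.5 and 144 CPM in *Jag2sm* libraries. The libraries came in the same order among *Jag2sm* replicates, with replicate 2 highest and replicate 3 lowest, and the fitted fold was 15.0 (log2 fold change 3.90, SE 0.736). Within the batches numbered 1, 2 and 3 in the labels, *Jag2sm* exceeded WT on the log2 CPM scale by 2.01, 3.71 and 1.14 for *H2-K1* and by 3.83, 4.81 and 1.51 for *H2-D1*. In batch 1 the WT level rests on 3 reads of *H2-K1* and 1 read of *H2-D1*. Class I genes form a family of close copies, and 9.80% to 14.3% of aligned reads were left uncounted for a low mapping quality, so the split of reads among these genes is uncertain.

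*B2m* (chr2:121977957-121983594, plus strand), the light chain that every class I molecule needs, had the most reads of the members, with 741 in WT and 4940 in *Jag2sm* libraries. Its level was 138, 274 and 278 CPM in WT and 806, 1616, 376 and 1033 CPM in *Jag2sm* libraries. The groups did not overlap, although *Jag2sm* replicate 3 stood nearer to the WT libraries than to the other *Jag2sm* libraries. The mean was 230.1 ± 79.5 CPM in WT (SD, n = 3) and 958 ± 516 CPM in *Jag2sm* libraries (SD, n = 4), and the log2 fold change was 2.02 (SE 0.463). In the 3 batches the log2 difference was 2.53, 2.55 and 0.44.

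Transporter and loading genes were unequal. *Tap1* (chr17:34405996-34416199, plus strand), a chain of the peptide pump, had 0, 0 and 2 reads in the WT libraries and 10, 35, 11 and 17 in the *Jag2sm* libraries, which makes 0, 0 and 1.90 CPM against 14.1, 24.2, 5.42 and 13.9 CPM. The 0 reads of WT replicate 1 allow up to 17.3 CPM, so the separation rests on WT replicates 2 and 3. The pooled counts gave a log2 ratio of 4.23 (95% exact interval 2.32 to 7.30, counting error only). *Tap2* (chr17:34422501-34435829, plus strand), its partner chain, stood at 5.76, 12.3 and 17.1 CPM in WT and at 19.8, 26.3, 14.8 and 37.5 CPM in *Jag2sm* libraries. Here the groups overlapped, since *Jag2sm* replicate 3 lay below WT replicate 3, and the log2 fold change was 0.86 (SE 0.403). *Tapbp* (chr17:34134873-34148267, plus strand), which encodes tapasin, the bridge between the pump and the heavy chain, stood at 5.76, 6.46 and 10.4 CPM in WT and at 26.9, 58.7, 13.3 and 36.7 CPM in *Jag2sm* libraries. Its groups did not overlap, on 1, 10 and 11 reads in the WT libraries, and the log2 fold change was 2.07 (SE 0.555). The batch differences on the log2 scale were 3.21, 3.92 and 0.98 for *Tap1*, 1.52, 1.00 and -0.19 for *Tap2*, and 1.93, 2.89 and 0.31 for *Tapbp*. With 0 WT reads of *Tap1* in batches 1 and 2, its values there depend on the prior count of 2. In batch 1 those of *Tap2* and *Tapbp* rest on 1 WT read each.

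Among the immunoproteasome subunits *Psmb8* stood apart from *Psmb10*. *Psmb8* (chr17:34416690-34420428, plus strand), the inducible counterpart of *Psmb5*, had 2 reads in all WT libraries and 90 in the *Jag2sm* libraries. Its level was 0, 1.29 and 0 CPM in WT and 12.7, 37.3, 5.42 and 13.0 CPM in *Jag2sm* libraries, with no overlap. As for *Tap1*, the 0 reads of WT replicate 1 allow up to 17.3 CPM, so the separation rests on WT replicates 2 and 3. The pooled log2 ratio was 4.53 (95% exact interval 2.63 to 7.60). *Psmb9* (chr17:34400960-34406738, minus strand), the counterpart of *Psmb6*, had 6 reads in WT and 45 in *Jag2sm* libraries, too few to pass the filter on low counts. It stood at 0, 2.59 and 1.90 CPM in WT and at 7.07, 12.4, 1.48 and 15.5 CPM in *Jag2sm* libraries, so that *Jag2sm* replicate 3 lay among the WT libraries (pooled log2 ratio 1.94, interval 0.71 to 3.46). *Psmb10* (chr8:106662362-106665077, minus strand), the counterpart of *Psmb7*, lies on another chromosome than the other subunits. It stood at 28.8, 35.6 and 34.1 CPM in WT and at 39.6, 39.4, 22.7 and 46.5 CPM in *Jag2sm* libraries, and *Jag2sm* replicate 3 was the lowest of all 7 libraries. Its log2 fold change was 0.11 (SE 0.289), so the groups differed by less than the spread between libraries. Exons of *Tap1* and *Psmb9* overlap on opposite strands, and the strand setting of the counting is not given in the sources used here, so reads in that stretch cannot be assigned with certainty.

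*Nlrc5* (chr8:95160984-95253900, plus strand), which encodes the transactivator of class I promoters, was near the limit of detection. It had 0, 0 and 1 reads in WT and 0, 11, 2 and 3 reads in *Jag2sm* libraries, or 0, 0 and 0.948 CPM against 0, 7.60, 0.985 and 2.45 CPM. The pooled log2 ratio was 3.04, with an interval from 0.35 to 8.43 that covers counting error only, and 11 of the 16 *Jag2sm* reads came from replicate 2.

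**Figure D1:**
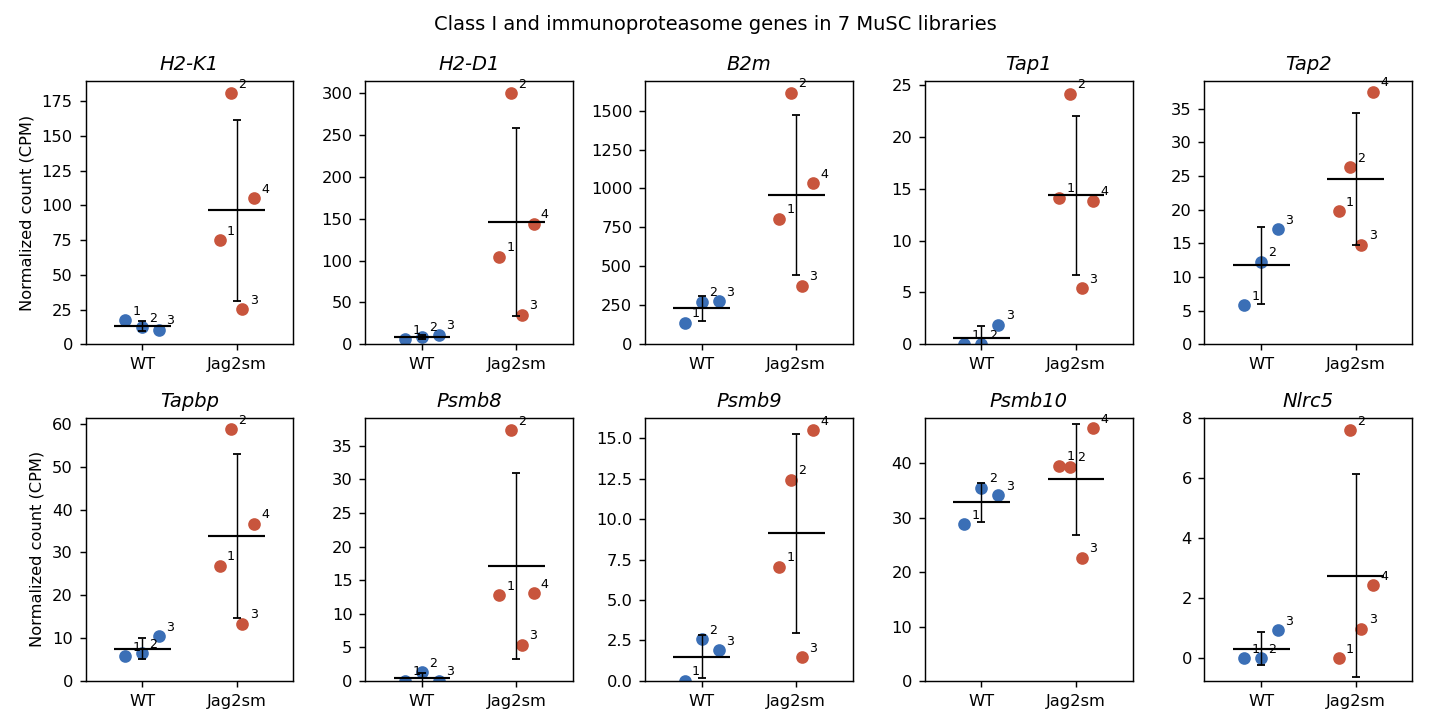
Normalized counts (CPM, linear axis that differs between panels) of the 10 genes in each library, with WT in blue, *Jag2sm* in red, the replicate number beside each point, a line at the group mean and a bar of 1 SD (3 WT and 4 *Jag2sm* libraries). *Jag2sm* replicate 3 is the lowest *Jag2sm* library for 9 of the 10 genes, and replicate 2 is the highest library for 7.

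Over the 10 genes, 8 passed the filter on low counts, and the fit across all genes put 5 of them past its threshold as higher in *Jag2sm* MuSCs (*H2-K1*, *H2-D1*, *B2m*, *Tap1* and *Psmb8*) and 0 as lower. Of all 9489 genes tested, 1.42% were called higher and 4.84% lower by edgeR, but since the genes were chosen on this comparison nothing is read from their count. *Tap1* and *Psmb8* passed the filter through the *Jag2sm* libraries alone. So did *Irf1*, *H2-T23*, *Erap1*, *H2-DMa*, *Apol9b*, *Mndal* and *Isg15* among the tested genes described below. Of the members, *H2-D1*, *Tap2* and *Tapbp* would not have passed on the WT libraries alone. The groups did not overlap for 6 genes, the 5 called and *Tapbp*, against 10.3% of the tested genes. The median log2 fold change of the 8 was 2.53, against 0.05 over all tested genes. The number called moved with single libraries. It was 1 without WT replicate 1 (1.11% of all genes called higher), 0 without WT replicate 2 (0.335%) or without WT replicate 3 (0.199%), 3 without *Jag2sm* replicate 1 (0.884%), 2 without replicate 2 (0.328%), 6 without replicate 3 (2.39%) and 3 without replicate 4 (1.12%). The fold changes moved less for the heavy chains, with log2 fold changes of 3.84, 3.83 and 4.07 for *H2-D1* and of 3.05, 3.02 and 2.84 for *H2-K1* without WT replicates 1, 2 and 3. For *Tap1* and *Psmb8*, with 2 WT reads each, the fitted values then ranged from 3.08 to 7.08 and from 3.77 to 7.26. With batch as a block *B2m* was no longer called (log2 fold change 1.84, 1.23% of all genes called higher). DESeq2 called the same 5 and *Tapbp* (1.66%), limma-voom called *H2-D1* and *B2m* alone (1.07%), and *B2m* was the only member testable, and called, where every library had to hold at least 10 reads (1.44%).

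The *Jag2sm* libraries fell in a common order. Replicate 2 had the highest level of all 7 libraries for 7 of the 10 genes and replicate 4 for *Tap2*, *Psmb9* and *Psmb10*. Replicate 3 was the lowest *Jag2sm* library for every gene except *Nlrc5*, and it still lay above every WT library for 7 of the 10 genes, against 9, 10 and 10 genes for replicates 1, 2 and 4. Over all tested genes the share above every WT library was 30.8%, 29.6%, 30.6% and 29.3% in replicates 1 to 4. The mean log2 CPM of the 8 tested genes was 3.32, 3.72 and 3.88 in WT replicates 1 to 3 and 5.64, 6.56, 4.59 and 5.99 in *Jag2sm* replicates 1 to 4. The 3 highest libraries are the ones in which about as many reads failed to align as aligned, and *Jag2sm* replicate 3, with a share of unaligned reads like that of WT, lay between them and the WT libraries. When replicate 3 alone was set against the WT libraries, 0 of the 6 members that could be tested were called (0.354% of all genes were called higher, and the lone library was assumed to vary like the WT libraries). Its log2 fold changes were then 1.88 for *H2-D1*, 1.08 for *H2-K1*, 0.71 for *B2m*, 0.75 for *Tapbp*, 0.15 for *Tap2* and -0.56 for *Psmb10*. The part of the unaligned reads in the result was not tested.

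Within the batches, *Jag2sm* exceeded WT for 9 genes in batch 1, for all 10 in batch 2 and for 7 in batch 3. Over all tested genes that share was 53.7%, 51.2% and 50.1%. In batch 3 *Tap2*, *Psmb9* and *Psmb10* were lower in *Jag2sm*, by log2 differences of -0.19, -0.18 and -0.56.

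Shares within a library do not depend on its scaling. The heavy chains made up 14.3%, 7.22% and 7.28% of the reads of heavy chains and *B2m* together in WT libraries, and 18.2%, 22.9%, 13.9% and 19.5% in *Jag2sm* libraries. WT replicate 1, with 28 such reads and a 95% Wilson interval of 5.70% to 31.5%, sets no limit, and the other WT libraries, with intervals up to 9.97% and 10.7%, lay below the lowest *Jag2sm* interval, which began at 11.7%. The 14.3% of WT replicate 1 lay above the 13.9% of *Jag2sm* replicate 3. *H2-D1* made up 58.3%, 62.4%, 58.5% and 57.8% of heavy chain reads in *Jag2sm* libraries and 25.0%, 42.4% and 52.2% in WT libraries, but only 60 reads stand behind the WT values, and their intervals reached 69.9%, 59.2% and 70.8%.

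The immunoproteasome subunits together remained a small share of the core particle. *Psmb8*, *Psmb9* and *Psmb10* made up 1.33%, 1.26% and 1.10% of their reads and those of 11 other core subunits in WT libraries, and 1.66%, 3.24%, 0.933% and 2.39% in *Jag2sm* libraries. *Jag2sm* replicates 1, 2 and 4 lay above the WT values and replicate 3 below them. Against its own constitutive counterpart *Psmb6*, *Psmb9* took 0%, 0.768% and 0.535% of the reads of the pair in WT and 1.78%, 4.72%, 0.566% and 5.11% in *Jag2sm* libraries, where the 0 of 31 reads in WT replicate 1 allows up to 11.0% by the Wilson interval. The other pairs rested on few reads, since *Psmb5* had 0 to 4 reads and *Psmb7* 1 to 16 reads in each library, beside 31 to 527 of *Psmb6*. Why these core subunits were counted so rarely was not tested, and the shares of both pairs are uncertain. *Psmb8* was 2 of the 7 reads it shared with *Psmb5* in WT libraries and 90 of 99 in *Jag2sm* libraries, and *Psmb10* was 96 of the 109 reads it shared with *Psmb7* in WT and 188 of 226 in *Jag2sm* libraries.

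**Figure D2:**
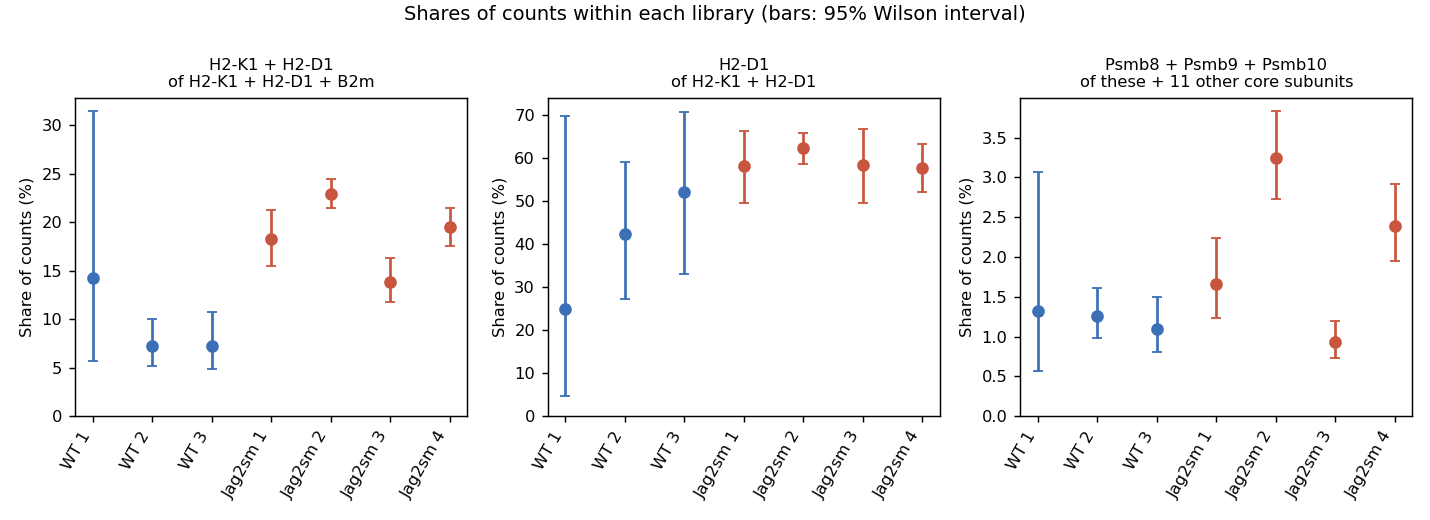
Share of counts in percent within each library, with bars for the 95% Wilson interval (counting error only), for the heavy chains among class I chains, for *H2-D1* among the heavy chains, and for the immunoproteasome subunits among core subunits. In the first panel the 4 *Jag2sm* libraries, from 13.9% to 22.9%, lie above WT replicates 2 and 3, and in the third *Jag2sm* replicate 3 lies at 0.933%, below the WT libraries.

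Of the other genes of class I antigen processing 73 are described here, and 44 of these were tested. *Irf1* is an interferon-induced activator of class I promoters. It stood at 2.34 ± 2.05 CPM in WT (SD, n = 3) and 13.3 ± 4.90 CPM in *Jag2sm* libraries (SD, n = 4). The libraries were at 0, 3.23 and 3.79 CPM in WT and at 12.7, 19.3, 7.39 and 13.9 CPM in *Jag2sm*, with no overlap. The 0 reads of WT replicate 1 allow up to 17.3 CPM, so the separation rests on WT replicates 2 and 3. *Irf1* did not pass (log2 fold change 2.01, SE 0.543, adjusted p = 0.0558 by edgeR). The interferon receptor chain gene *Ifngr1* had a log2 fold change of 0.24 (adjusted p = 0.764 by edgeR). Of the interferon genes on the list, *Ifng* had 0 reads in every library and *Ifnb1* 1 read.

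The core of the proteasome, the chaperones and the peptidases followed. All 11 other core subunits were tested, with log2 fold changes from -0.06 to 0.29. Of them 0 were called by edgeR, DESeq2 or limma-voom (6.26%, 6.35% and 6.45% of all genes), and 0 had an unadjusted p under 0.05 (19.7% of all tested genes). *Psmb6* had a log2 fold change of 0.00 (SE 0.274), and *Psmb5* and *Psmb7* were not tested. The chaperones that hold a heavy chain during loading had log2 fold changes of 0.15 for *Calr* (calreticulin, SE 0.263), 0.22 for *Canx* (calnexin, SE 0.256) and 0.30 for *Pdia3* (ERp57, SE 0.232), and none passed. *Erap1*, the peptidase that trims peptides in the endoplasmic reticulum, had a log2 fold change of 1.02 (SE 0.553, adjusted p = 0.341 by edgeR). Of 5 cytosolic peptidases, which trim or destroy peptides, 0 were called by edgeR, DESeq2 or limma-voom (6.26%, 6.35% and 6.45% of all genes). An unadjusted p under 0.05 was held by 2 (19.7% of all tested genes). These were *Thop1* (log2 fold change -0.69, adjusted p = 0.108 by edgeR) and *Blmh* (log2 fold change -0.70, adjusted p = 0.221 by edgeR). For both, every *Jag2sm* library lay below every WT library, as for 12.2% of all tested genes. Of the activator chains that bind the immunoproteasome, *Psme2* had a log2 fold change of 0.28 (SE 0.359), and *Psme1* was not tested, at 0, 2.59 and 7.59 CPM in WT and 17.0, 24.9, 3.94 and 4.89 CPM in *Jag2sm* libraries.

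Of 17 other class I and class I-like heavy chain genes, 6 had 0 reads in every library and 2 were tested. *H2-T23*, the nonclassical Qa-1 heavy chain, stood at 5.76, 4.52 and 0.948 CPM in WT and at 8.48, 29.0, 1.97 and 12.2 CPM in *Jag2sm* libraries, where replicate 3 lay among the WT libraries (log2 fold change 1.97, SE 0.935, adjusted p = 0.278 by edgeR). *H2-Q4* had 1 read in WT and 14 in *Jag2sm* libraries, 11 of them in replicate 2. Of 7 class II genes 1 was tested, *H2-DMa*, with a log2 fold change of 0.73 (adjusted p = 0.411 by edgeR).

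**Figure D3:**
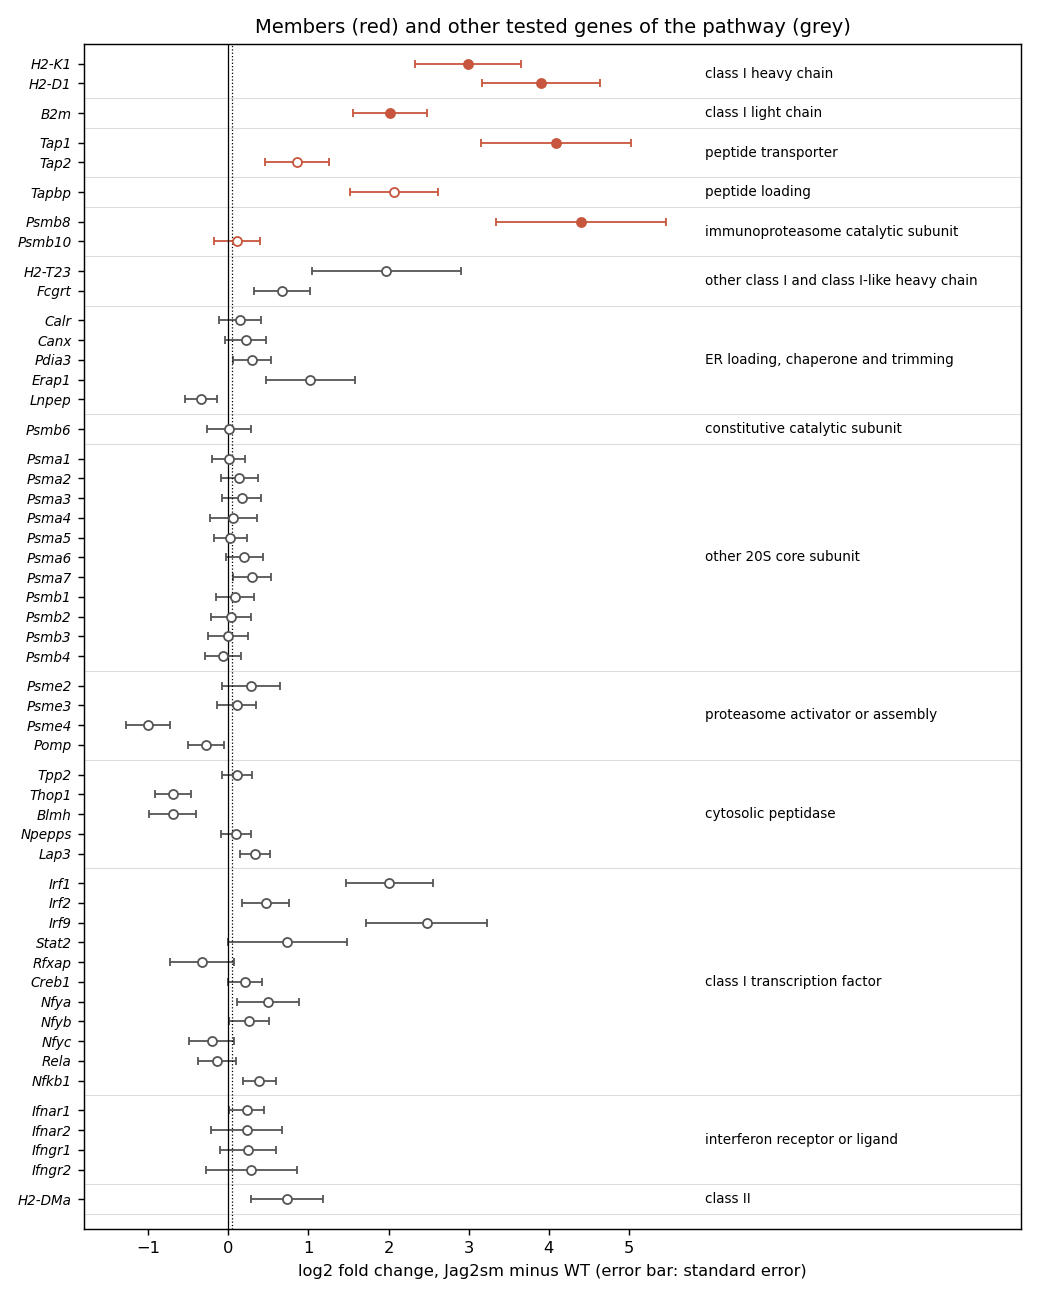
Log2 fold change (*Jag2sm* minus WT, with the standard error as a bar) of the 8 tested members in red and of 44 tested genes of the pathway in grey, grouped by role. Filled points were called at an adjusted p under 0.05, the solid line marks 0 and the dotted line the median of all tested genes, 0.05. The 11 other core subunits lie between -0.06 and 0.29.

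The genes whose log2 CPM over the 7 libraries was most like the mean of the 8 tested members included *Apol9b* (Pearson r = 0.996), *Mndal* (0.991), *Isg15* (0.991) and *Ifitm3* (0.990), a description over 7 libraries that share their scaling and the genotype difference. *Isg15*, a ubiquitin-like modifier, stood at 0, 3.88 and 2.85 CPM in WT and at 143, 917, 8.87 and 373 CPM in *Jag2sm* libraries. *Ifitm3*, a membrane protein that restricts viral entry, stood at 104, 179 and 161 CPM in WT and at 1435, 2282, 307 and 1501 CPM in *Jag2sm* libraries. In both, *Jag2sm* replicate 2 was the highest library and replicate 3 the lowest *Jag2sm* library.

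The MHC region also holds genes of other functions, and 7 of the 10 members lie in it on chromosome 17. In the stretch from *Tapbp* to *H2-D1* (chr17:34134873-35486475, 1.35 Mb) 31 other genes were tested, and edgeR called 0 of them in either direction (1.42% of all tested genes higher and 4.84% lower), with 4 at an unadjusted p under 0.05 (19.7% of all tested genes) and with 1 called by DESeq2 and 0 by limma-voom (6.35% and 6.45% of all genes). Their median log2 fold change was 0.06, with a range from -0.81 to 1.28, and 2 had *Jag2sm* libraries that all lay above the WT libraries (6.45%, against 10.3% of all tested genes).

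Other cell types that a magnetic sort can leave behind were followed by their markers. Of 15 immune markers, 7 had 0 reads in all libraries, among them *Ptprc* (CD45), *Adgre1* and *Lyz2* of macrophages and *Cd3e* of T cells, and the summed level was 5.76 to 26.6 CPM in WT and 4.43 to 17.0 CPM in *Jag2sm* libraries (exact permutation test, p = 0.343). Of 10 endothelial markers, *Kdr*, *Tie1* and *Esam* were at 0, and the sum was 7.59 to 17.3 CPM in WT and 8.38 to 17.0 CPM in *Jag2sm* libraries. *Laptm5*, with 57 reads in WT and 29 in *Jag2sm* libraries, was the one immune marker with more than 11 reads in either genotype. Fibro-adipogenic markers (8, with *Dpt* and *Lum* at 0) summed to 0 to 17.1 CPM in WT and 6.90 to 45.6 CPM in *Jag2sm* libraries (exact permutation test, p = 0.286). The sums were 29.7, 45.6, 6.90 and 32.6 CPM in *Jag2sm* replicates 1 to 4. In the sum, replicate 2 was thus highest and replicate 3 lowest, as for the heavy chains. *Cd34* (31 reads in WT and 88 in *Jag2sm* libraries) and *Ly6a* (6 and 43) carried most of the sums. *Dcn* (3 and 0) and *Pi16* (3 and 1) had fewer reads in *Jag2sm* libraries. *Pdgfra* (1 and 7) and *Clec3b* (0 and 2) had more. With markers going both ways, the sums do not identify a cell type. The part of fibro-adipogenic cells in the result was not tested. Mural markers (5, none at 0 throughout) summed to 32.2 to 80.7 CPM in WT and 31.8 to 646 CPM in *Jag2sm* libraries, where *Jag2sm* replicate 1 was the high one. There 456 of the 457 mural reads were of *Rgs5*, a regulator of G protein signalling (log2 fold change 3.73, adjusted p = 0.135 by edgeR). *Abcc9*, a subunit of potassium channels, was lower in *Jag2sm* libraries (log2 fold change -3.71, adjusted p = 0.0139 by edgeR), and *Cspg4* had 32 reads in WT and 21 in *Jag2sm* libraries. Schwann cell markers (4) summed to 0 to 1.29 CPM in WT and 1.48 to 5.66 CPM in *Jag2sm* libraries (exact permutation test, p = 0.0571, 0.171 after adjustment over 6 lists). These sums rest on 0, 2 and 1 reads in WT and on 4, 3, 3 and 2 reads in *Jag2sm* libraries. The part of Schwann cells in the result was not tested. In RNA of a whole cell preparation, a change in all cells and a change in the share of cells that express a gene cannot be told apart.

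**Figure D4:**
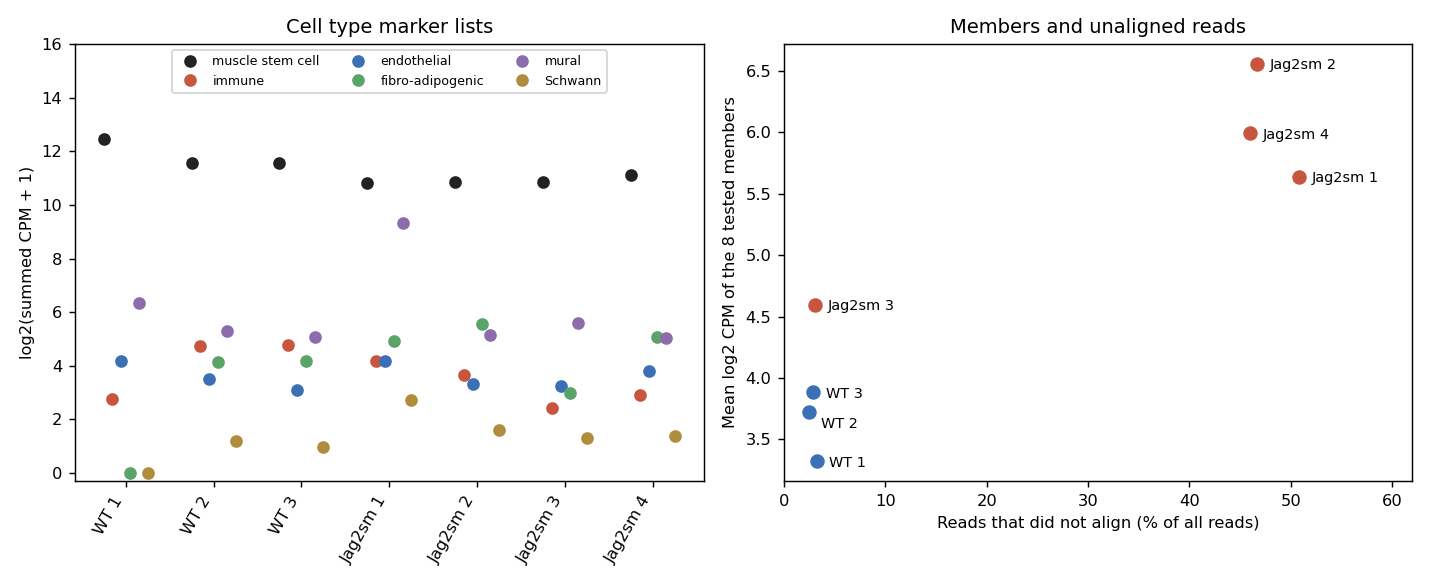
Left, summed level of the 6 marker lists in each library on the scale log2(summed CPM + 1). Right, mean log2 CPM of the 8 tested members against the percent of all reads that did not align, with WT in blue and *Jag2sm* in red. The immune list lies between 4.43 and 26.6 CPM in all libraries, and *Jag2sm* replicate 3, at 3.07% unaligned reads, has a member mean of 4.59, above the WT libraries and below the other *Jag2sm* libraries.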

How the data were processed

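RNA of isolated MuSCs from WT (n = 3) and homozygous *Jag2sm* mice (n = 4) was sequenced as direct cDNA by nanopore. Per the study's methods, minimap2 2.17 placed the reads on GRCm39 and htseq assigned them to genes. The deposited values are raw counts for 56748 genes per library. The version and strand setting of htseq and the annotation release are not given in the sources used here. The 5 summary counts of each file (unaligned, low mapping quality, ambiguous, no gene and the like) were kept out of library sizes and tests. Between 20.8% and 45.1% of aligned reads lay on no gene. The table of the authors' own DESeq2 comparison (fold changes and p-values) was not used. Locations are from GENCODE M39, which held 56017 of the identifiers.

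The fit used edgeR 4.0.16 in R 4.3.3, with filterByExpr (minimum count 10, minimum total 15), TMM, glmQLFit and glmQLFTest without covariates. Called means a p under 0.05 after Benjamini-Hochberg adjustment over all 9489 genes tested. The SE is the size of the log2 fold change divided by the square root of F. edgeR raises the p of a gene whose fitted spread lies under that of counting alone. Log2 CPM used a prior count of 2. The limit that a count of 0 allows was taken as 3 counts, and intervals (95%; SciPy 1.17.1, Python 3.11.15) cover counting error only. Marker lists were compared by a two-sided exact permutation test of log2(summed CPM + 1). Promoter motifs were searched in RefSeq windows.

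The batch number in the labels equals the replicate number, and *Jag2sm* replicate 4 has no partner. Deviations from the genotype mean were correlated between libraries of one batch at 0.0740, 0.0144 and 0.0539 over 9489 genes. Batch as a block was an alternative, in which *Jag2sm* replicate 4 adds nothing to the genotype estimate. Others were DESeq2 1.42.0, limma-voom (limma 3.58.1), DESeq2 size factors, library size alone, no filter, at least 10 counts in every library, each library left out, and, chosen after seeing the data, *Jag2sm* replicate 3 alone against WT. The fits were also run on simulated counts with planted changes, as a check of the code, and nothing about the members is read from that run. The members and lists were chosen with earlier results of these data known. Named genes are the members, 13 pathway genes named by role, and genes most like the members' mean. Of the pathway list, 1 gene that was called is not reported here and is left out of all counts over the list. *H2-DMa*, *Ifng*, *Ifnb1*, *Thop1*, *Blmh* and those of the closing section that are not among these were named, and the stretch of chromosome 17 was set, after values were seen.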

Additional observations from a re-analysis of the deposited data

Results flagged for a closer look

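In the 4 *Jag2sm* libraries, 35 groups of values were checked for a library far from the others, and chance marks about 1 in 20 such groups. *H2-D1* made up 62.4% of heavy chain reads in *Jag2sm* replicate 2, where the nearest library stood at 58.5%. *Psmb8* made up 75.0% of the reads it shared with *Psmb5* in *Jag2sm* replicate 1, on 12 reads, where the nearest stood at 91.7%. Muscle stem cell markers summed to 2229 CPM in *Jag2sm* replicate 4, with the nearest library at 1833 CPM. Mural markers summed to 646 CPM in *Jag2sm* replicate 1, with the nearest at 47.8 CPM. Schwann cell markers summed to 5.66 CPM in the same library, on 4 reads, with the nearest at 2.07 CPM, on 3 reads.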

How the results depend on the processing

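Genes called numbered 594, 1248 with no filter, 274 with at least 10 counts in every library, 221 for *Jag2sm* replicate 3 alone against WT, and 251 to 616 when 1 library was left out. Of the members 5 were called, 2 by limma-voom, 1 when every library had to hold at least 10 counts (*B2m* alone could be tested), 0 for *Jag2sm* replicate 3 alone, and 0 to 6 when 1 library was left out. Of the pathway genes given here 0 were called by edgeR and by limma-voom, 2 by DESeq2 (*Psme4* and *Irf9*), 1 by library size alone (*Irf1*), 4 with no filter, 1 when every library had to hold 10 counts (*Psme4*), 1 with the replicate block (*Irf9*), and 0 to 2 when 1 library was left out. Over all genes the share called was 6.26% by edgeR, 6.45% by limma-voom and 6.35% by DESeq2. *Tapbp* was called by DESeq2, by library size alone, with no filter and without *Jag2sm* replicate 3. Directions turned for *Psmb10*, at -0.079 (log2) with the replicate block, -0.56 for *Jag2sm* replicate 3 alone and -0.025 to 0.30 when 1 library was left out; for *Calr*, at -0.31 for replicate 3 alone and -0.011 to 0.29 when 1 was left out; for *Canx*, at -0.014 to 0.39 when 1 was left out; for *Psmb6*, at -0.15 for replicate 3 alone and -0.23 to 0.16 when 1 was left out; and for *Psme2*, at -0.38 for replicate 3 alone. Among the members and named pathway genes the replicate block changed no other call than those of *B2m* and *Irf9*. Library size alone moved the median log2 fold change of all genes from 0.05 to 0.21. Where calls were lost with a library, fewer samples were tested; other causes were not tested. Depth limits *Tap1*, *Psmb8*, *Psmb9* and *Nlrc5* in WT, with 1 to 6 reads each.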

Other observations

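Among the listed genes that were not tested, *H2-M3*, a nonclassical class I heavy chain that presents formylated peptides, had 0, 1 and 1 reads in WT and 6, 5, 8 and 8 reads in *Jag2sm* libraries. Its levels were 0, 0.646 and 0.948 CPM in WT and 8.48, 3.46, 3.94 and 6.52 CPM in *Jag2sm* libraries, so that *Jag2sm* replicate 2 was the lowest of its group here, and the pooled log2 ratio was 2.79 (95% exact interval 0.80 to 5.91, counting error only). *Psme4*, a proteasome activator that does not belong to the interferon-induced set, was lower in every *Jag2sm* library than in any WT library, as were 12.2% of all tested genes. It stood at 254, 114 and 138 CPM in WT and 66.5, 75.3, 84.8 and 87.2 CPM in *Jag2sm* libraries, and missed the threshold (log2 fold change -1.01, SE 0.272, adjusted p = 0.0555 by edgeR). *Irf9*, a transcription factor of the type I interferon response, stood at 17.3, 7.76 and 1.90 CPM in WT and at 28.3, 65.6, 9.36 and 38.3 CPM in *Jag2sm* libraries (log2 fold change 2.47, SE 0.759, adjusted p = 0.0859 by edgeR), and was called with batch as a block.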
